A study of Mus musculus with 18 samples.

Results

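Gcsh encodes the H protein of the glycine cleavage system, and its RNA was followed here as 1 of 157 genes that could be named on the array. It was read through the 1 probe, of 80520, whose ID carries a transcript accession that RefSeq lists for Gcsh. RNA was measured on 18 Agilent arrays, 3 for each of 6 groups. Cells of E-Wnt, M-Wnt or metM-Wnt, which are mouse lines of triple-negative breast cancer, were kept for 72 h in RPMI 1640 medium with 2.2 µM folic acid and regular fetal bovine serum (control), or in the same medium with 0 µM folic acid and dialyzed serum (withdrawal). Since dialyzed serum came with the loss of folic acid, the effects of these changes cannot be told apart, and the labels name no other agent. The concentration is that of the labels, whereas the design text of the series writes 2.2 mM. The labels give mammary tumor as the tissue of E-Wnt and M-Wnt and liver metastasis as that of metM-Wnt, and the design text describes the 3 replicates of a group as biological. Each array carried red-labelled RNA of the cells and green-labelled RNA of NIH3T3 mouse fibroblasts, the common reference on all 18 arrays, so that a level is a log2 ratio of cells over fibroblasts.

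The glycine cleavage system sits in the mitochondrion, where it splits glycine and hands a one-carbon unit to tetrahydrofolate, the reduced form of the vitamin withdrawn here. The P protein (Gldc) removes the carboxyl group of glycine, the H protein (Gcsh) carries the remaining aminomethyl group on its lipoyl arm, the T protein (Amt) transfers the carbon to tetrahydrofolate, and the L protein (Dld) reoxidises the arm. The H protein is also known as a carrier from which the lipoyl group is passed to other mitochondrial enzymes such as pyruvate dehydrogenase. The carbon that the system loads onto folate can be used for the synthesis of serine, purines and thymidylate.

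The Gcsh probe was 60 bases long, and 2 further probes on the array shared at least 20 bases with it on the same strand, while 0 probes did so on the opposite strand. The 3 sequences are shown because they tile a single stretch of 100 bases, so the overlapping probes give further readings of nearly the same piece of RNA. They are written 5′ to 3′ as in the scanner files, and capitals mark the bases shared with the Gcsh probe (in the Gcsh probe itself, those shared with A_51_P297517).
Gcsh probe: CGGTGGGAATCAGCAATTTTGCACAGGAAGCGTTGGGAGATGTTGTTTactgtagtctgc
A_51_P297517: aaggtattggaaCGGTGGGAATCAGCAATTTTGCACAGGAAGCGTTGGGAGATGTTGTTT
A_52_P390625: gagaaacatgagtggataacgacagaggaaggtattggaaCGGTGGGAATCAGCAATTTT
A_51_P297517 started 12 bases earlier and shared 48 bases with the Gcsh probe, and A_52_P390625 started 40 bases earlier and shared 20. These last 2 probes shared 32 bases with each other. GC content was 48.3% in the Gcsh probe, 45% in A_51_P297517 and 43.3% in A_52_P390625, against a median of 41.7% over all probes. Since the files give no gene name for the overlapping probes, they are called by their IDs, and their readings are not independent of those of the Gcsh probe.

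The array's IDs place the Gcsh probe in a set marked as non-coding RNA, although the accession in its ID is that of the coding transcript. RefSeq lists 2 Gcsh transcripts, 1 coding and 1 non-coding, and the probe was not mapped to either. Its name as Gcsh rests on the accession in its ID alone, and the transcript, exon and strand that it reads were not tested.

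The probe gave a clear signal. On all 18 arrays both spots stood well above background in either colour, with 0 outlier marks. Its red signal lay between 1422 and 6118 scanner units, which was 25.6 to 103 times the local red background of 55.5 to 62.8 units. The 2 spots of an array differed by a median of 0.098 on the log2 scale (at most 0.157), whereas the pooled SD between arrays of a group was 0.313. The spread between replicate arrays was therefore larger than the spread between spots.

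**Figure D1:**
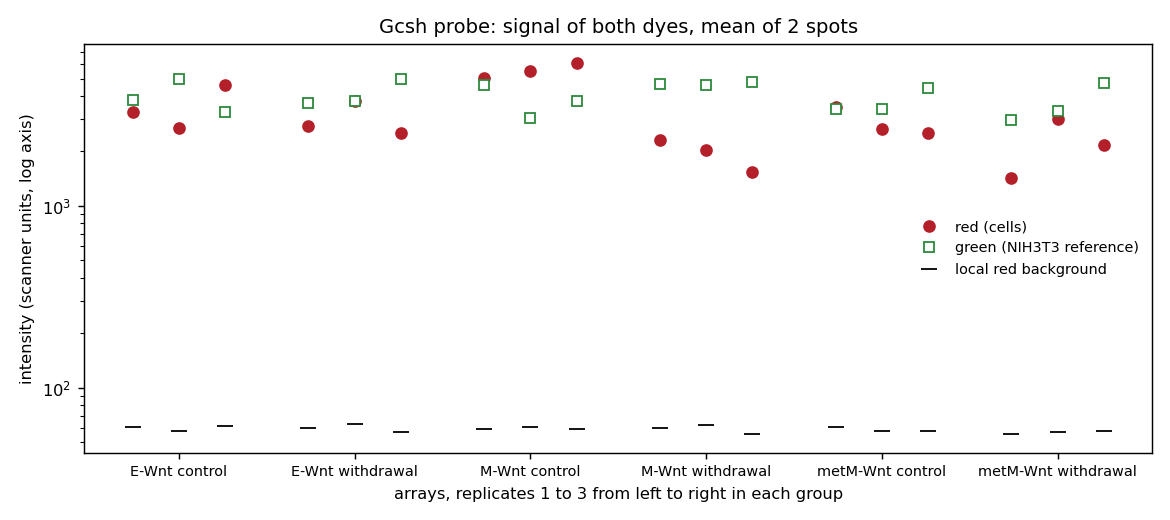
Intensity of the Gcsh probe in scanner units (log axis, mean of 2 spots) for each of the 18 arrays, with replicates 1 to 3 from left to right in each group. Red circles are the cells, open green squares the NIH3T3 reference and short black lines the local red background. The M-Wnt control arrays have the highest red signals, from 5036 to 6118, the M-Wnt withdrawal arrays lie between 1523 and 2303, and every red signal is at least 25.6 times its background.

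Across the whole array, the arrays' mean red signal lay between 1964 and 6649 units, the mean green signal between 3371 and 4618, and the share of probes well above background in red between 40.9% and 53.7%. The 3 metM-Wnt control arrays (3268 to 3502) and withdrawal arrays (2260 to 2837) were dimmer in red than the E-Wnt arrays (4701 to 6649 in control and 4129 to 5604 in withdrawal medium). None of 38 marker genes listed for epithelial, mesenchymal, fibroblast, liver or immune cells had a probe with a gene name, so the labelled cell type could not be checked. The arrays lay on 5 slides, none of which held metM-Wnt arrays together with another line.

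Gcsh was highest in M-Wnt cells in control medium and lowest in E-Wnt cells. Cells were red and fibroblasts green on every array, with no dye swap. Dye and sample therefore cannot be told apart in a level against the reference, which also depends on the loess normalisation. E-Wnt control replicate 3, for example, was at -0.314 although its red signal (4599) was above its green signal (3291). In M-Wnt control cells the log2 ratios were 0.095, 0.51 and 0.741, a mean of 0.449 ± 0.327 (SD, n = 3), or 1.37 times the fibroblast reference. All 3 arrays were above the reference, with replicate 1 the lowest of them. In M-Wnt cells without folic acid they were -0.5, -0.561 and -0.067, a mean of -0.376 ± 0.269 (SD, n = 3), or 0.771 times the reference. Every withdrawal array of M-Wnt was below the reference and below every control array of that line, and replicate 3 was the nearest to them.

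In metM-Wnt control cells the log2 ratios were 0.36, -0.122 and -0.242, a mean of -0.001 ± 0.319 (SD, n = 3). Without folic acid they were -0.026, 0.51 and -0.429, a mean of 0.018 ± 0.471 (SD, n = 3). Both metM-Wnt groups scattered about the level of the fibroblasts, the withdrawal group with the widest spread of the 6, and their ranges overlapped.

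In E-Wnt control cells the log2 ratios were -0.424, -0.764 and -0.314, a mean of -0.501 ± 0.235 (SD, n = 3), or 0.707 times the reference. Without folic acid they were -0.824, -0.493 and -0.742, a mean of -0.686 ± 0.172 (SD, n = 3), or 0.622 times the reference. All 6 E-Wnt arrays were below the reference, and the ranges of the media overlapped.

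From high to low, the group means ran M-Wnt control, metM-Wnt withdrawal, metM-Wnt control, M-Wnt withdrawal, E-Wnt control and E-Wnt withdrawal. The gaps between neighbours in this order were 0.431, 0.019, 0.375, 0.125 and 0.185 on the log2 scale, and in all 5 cases the ranges of the neighbouring groups overlapped. No neighbouring groups were thus set apart beyond their spread. Of the differences described next, those that passed the main test lie between groups further apart in the order.

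**Figure D2:**
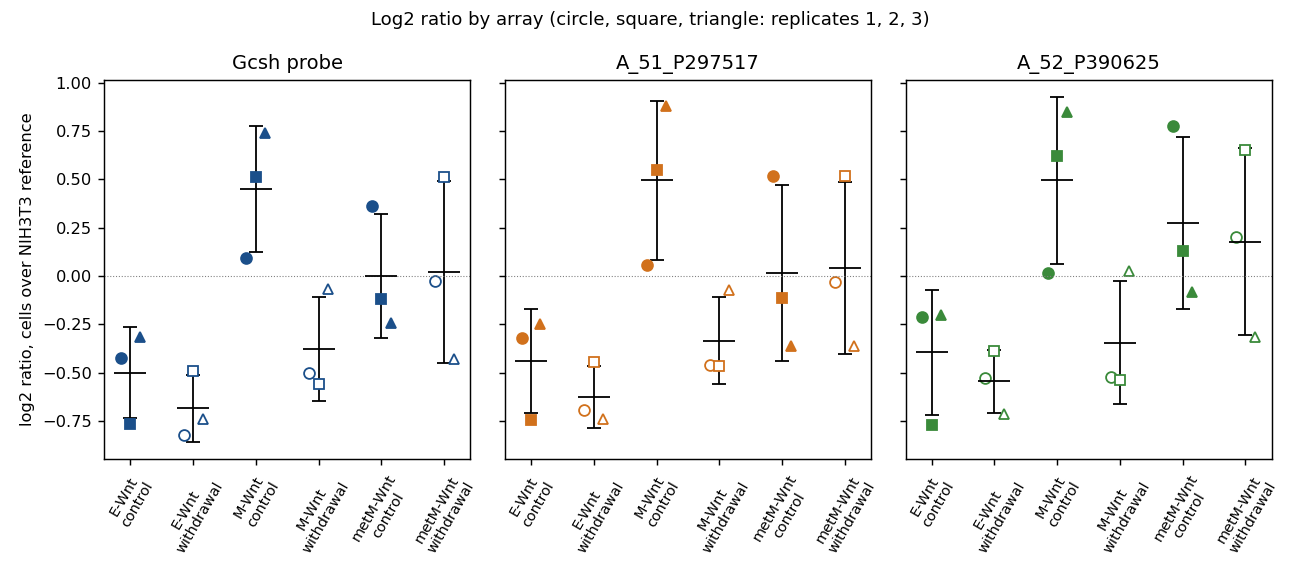
Log2 ratio of cells over the NIH3T3 reference (vertical axis) for each array in the 6 groups, in 3 panels for the Gcsh probe and the overlapping probes A_51_P297517 and A_52_P390625. Circles, squares and triangles are replicates 1, 2 and 3, filled in control medium and open in withdrawal, and bars are the mean ± SD of 3 arrays; Gcsh spans -0.824 to 0.741, and each panel has M-Wnt control as its highest group mean.

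Withdrawal against control asks how each line responded to losing folic acid. In M-Wnt, Gcsh fell by 0.82 on the log2 scale (SE 0.23, 95% confidence interval -1.32 to -0.33), which is 1.77-fold lower without folic acid, with 3 of 3 withdrawal arrays under every control array. The adjusted p was 0.0228 by limma with Benjamini-Hochberg adjustment over 41079 features (probes, or named genes averaged over their probes), against an adjusted threshold of 0.05. In this comparison 18.4% of all features were called, and 1.63% of them had a change as low as that of Gcsh or lower. On the scanner scale, mean red signal of the probe was 5546 units in control and 1949 in withdrawal arrays, while mean red signal over all probes was 4213 to 5170 in control and 1964 to 3722 in withdrawal arrays. The part of the dimmer arrays in this result was not tested beyond the scalings that follow.

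The M-Wnt fall kept its direction in each alternative run, but its size and call did not always hold. When each array was only centred on its median instead of normalised by loess, the value was -1.52 (adjusted p = 0.0116), and the median of all features was itself -0.25 under that scaling, which leaves -1.27 relative to it. A fixed block for the slide gave -1.12 (adjusted p = 0.082). This is the same estimate as the comparison within the single slide that held both media, not a further check. There the 1 control array was at 0.741 and the 3 withdrawal arrays averaged -0.376. The call was lost without M-Wnt control replicate 2 (-0.79, adjusted p = 0.078) or 3 (-0.68, adjusted p = 0.11), and without withdrawal replicate 1 (-0.76, adjusted p = 0.07) or 2 (-0.73, adjusted p = 0.088). Without M-Wnt control replicate 1, the lowest of its group, it was -1.0. The call thus rested on having all of these arrays.

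The overlapping probes gave changes of similar size. In M-Wnt, A_51_P297517 had log2 ratios of 0.059, 0.549 and 0.878 in control and -0.463, -0.468 and -0.074 in withdrawal arrays, and it fell by 0.83 (SE 0.26, adjusted p = 0.0344), with no overlap between the media. A_52_P390625 had 0.015, 0.62 and 0.85 in control and -0.522, -0.538 and 0.023 in withdrawal arrays, and it fell by 0.84 (SE 0.28, adjusted p = 0.0454). Here the groups overlapped, since withdrawal replicate 3 was above control replicate 1. Both calls were lost with a fixed block for the slide (adjusted p = 0.0817 and 0.118) and with no filter on dim probes (0.0576 and 0.0759). Leaving out any of the 4 M-Wnt arrays named above also ended these calls. They held in 14 of 18 fits that left out an array for A_51_P297517 and in 10 of 18 for A_52_P390625. Fits without an array of another line leave the M-Wnt change itself as it was and alter only its SE and adjusted p. The 3 probes read the same RNA samples, so they add no replication.

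In E-Wnt, the change of Gcsh was -0.19 (SE 0.23, 95% confidence interval -0.68 to 0.31, adjusted p = 0.907), and it did not pass the test in a comparison that called 0.0389% of features. Of the 3 withdrawal arrays, 1 was below all control arrays. Within the slide that held both media, the 3 control arrays averaged -0.501 and the 1 withdrawal array was at -0.824. In metM-Wnt, the change was 0.02 (SE 0.23, 95% confidence interval -0.47 to 0.51, adjusted p = 0.989), in a comparison that called 0.404% of features. Of the metM-Wnt withdrawal arrays, 1 was above and 1 below all control arrays. The sign of this value was not stable. It was -0.29 with median centring (-0.12 relative to the median of all features) and ran from -0.23 to 0.24 with arrays left out in turn. The intervals reach below and above 0, so they do not show that the RNA stayed the same in E-Wnt or metM-Wnt.

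Averaged over the 3 lines, the change was -0.33 (SE 0.13, 95% confidence interval -0.62 to -0.04) and did not pass (adjusted p = 0.152), where 6.92% of features were called. It passed only when arrays were weighted by their fit (-0.36, adjusted p = 0.038), a setting that gave M-Wnt control replicate 2 a weight of 9.01 and E-Wnt withdrawal replicate 3 a weight of 0.147.

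The differences between lines in this response were tested directly. The response of M-Wnt minus that of E-Wnt was -0.64 (SE 0.33, 95% confidence interval -1.34 to 0.06, adjusted p = 0.264), with 6.86% of features called. The response of metM-Wnt minus that of M-Wnt was 0.84 (SE 0.33, 95% confidence interval 0.14 to 1.54, adjusted p = 0.161), with 5.09% of features called, and 98.5% of features had a value at or below that of Gcsh. The response of metM-Wnt minus that of E-Wnt was 0.21 (SE 0.33, adjusted p = 0.832), with 0.0852% of features called. None of the 3 passed by limma, so a fall particular to M-Wnt was not shown. With array weights, the first was -0.80 (adjusted p = 0.042) and the second 1.15 (adjusted p = 0.0023). With median centring the first was -1.45 (adjusted p = 0.116) and the average over the lines -0.63 (adjusted p = 0.113), more than 1.5 times the values above, and neither passed. Part of this was a shift of all features. Relative to their median the values were -1.10 and -0.50 under that scaling, against -0.67 and -0.34 in the main fit.

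**Figure D3:**
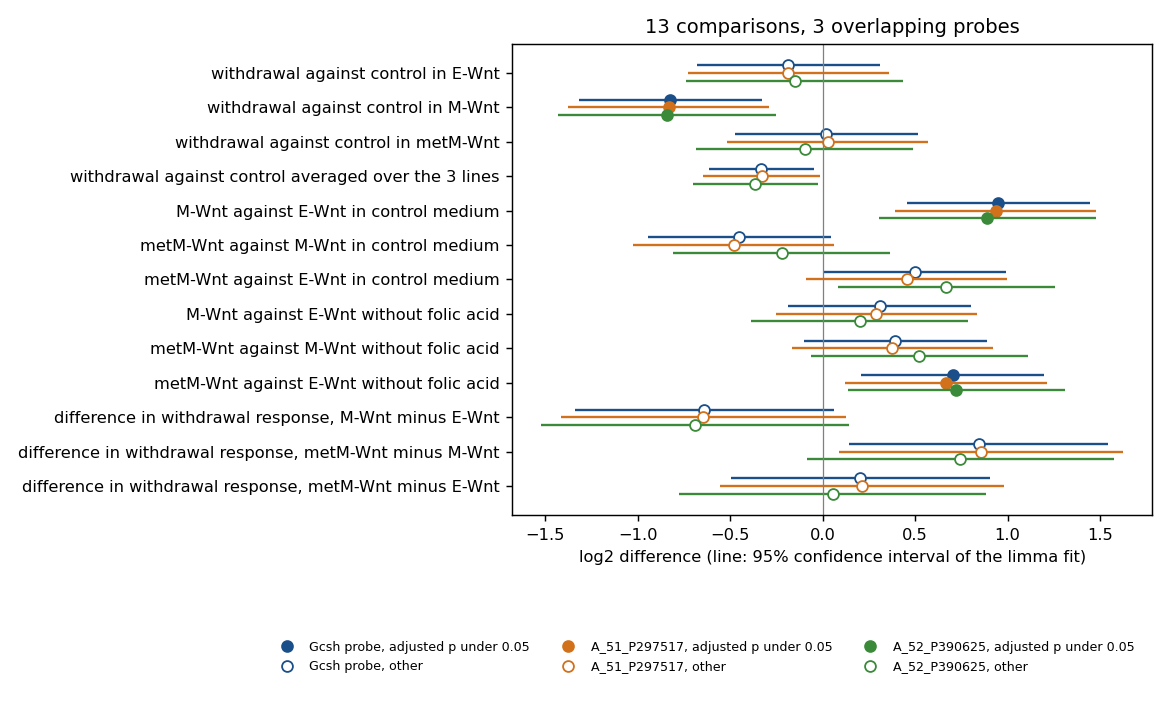
Log2 difference (horizontal axis) with its 95% confidence interval from the limma fit for 13 comparisons, for the Gcsh probe and the overlapping probes A_51_P297517 and A_52_P390625. Filled points have an adjusted p under 0.05: withdrawal in M-Wnt (-0.82 for Gcsh), control M-Wnt against control E-Wnt (0.95) and metM-Wnt against E-Wnt without folic acid (0.70) are filled for all 3 probes, and the other 10 comparisons for none.

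The lines were also compared within each medium, which asks how their levels differ apart from the withdrawal. These comparisons and those of withdrawal share arrays, so they are not independent of each other, and their values are given side by side. In control medium, Gcsh was higher in M-Wnt than in E-Wnt by 0.95 on the log2 scale (SE 0.23, 95% confidence interval 0.45 to 1.44, 1.93-fold, adjusted p = 0.00296), with 3 of 3 M-Wnt arrays above every E-Wnt array. That comparison called 45.6% of features, and 90.1% of features had a value at or below that of Gcsh. It was called in all 18 fits that left out an array (0.80 to 1.13). The difference itself can change only when an array of the groups compared is left out. No slide held control arrays of both lines, and a fixed block for the slide gave 0.60 (adjusted p = 0.38).

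The overlapping probes were higher in M-Wnt control cells as well, A_51_P297517 by 0.94 (SE 0.26, adjusted p = 0.00646) and A_52_P390625 by 0.89 (SE 0.28, adjusted p = 0.0144). Neither overlapped between the lines, with 3 of 3 M-Wnt arrays above every E-Wnt array. In fits that left out an array, A_52_P390625 lost the call without E-Wnt control replicate 2, M-Wnt control replicate 2 or M-Wnt control replicate 3. Both probes also lost it with median centring (adjusted p = 0.0506 and 0.0691) and with a fixed block for the slide (0.382 and 0.362), and kept it under the other 15 of 17 settings.

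In control medium, metM-Wnt was 0.50 above E-Wnt (SE 0.23, 95% confidence interval 0.00 to 0.99), and its 3 arrays were above every E-Wnt array, but the difference did not pass (adjusted p = 0.0951) where 44.1% of features were called. It passed with the red channel alone (0.54, adjusted p = 0.027) and with slide as a random block (0.51, adjusted p = 0.026). Against M-Wnt, metM-Wnt was at -0.45 (SE 0.23, 95% confidence interval -0.94 to 0.04, adjusted p = 0.284), with 2 of 3 arrays below all M-Wnt arrays and 9.33% of features called. It passed with array weights (-0.62, adjusted p = 0.011). With median centring these differences were 0.25 (adjusted p = 0.635) and -0.80 (adjusted p = 0.293). Relative to the median of all features they were then 0.42 and -0.67, against 0.44 and -0.49 in the main fit. The level of metM-Wnt in control medium was therefore between those of the other lines and was not separated from either by the test. Since no slide held metM-Wnt arrays with another line, slide and line cannot be told apart in these comparisons.

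Without folic acid, Gcsh was higher in metM-Wnt than in E-Wnt by 0.70 (SE 0.23, 95% confidence interval 0.21 to 1.20, 1.63-fold, adjusted p = 0.0219), with 3 of 3 metM-Wnt arrays above every E-Wnt array and 43.4% of features called. This result depended on the scaling and on single arrays. With median centring the value was 0.02 (adjusted p = 0.97), with the median of all features at -0.40 under that scaling, so that Gcsh lay 0.42 above it. It was 0.46 (adjusted p = 0.14) without metM-Wnt withdrawal replicate 2 and 0.64 (adjusted p = 0.07) without E-Wnt withdrawal replicate 1, and with only the 2 groups compared in the fit the adjusted p was 0.059. The slide could not be used as a fixed block, since no slide joined metM-Wnt to another line, so slide and line cannot be told apart there.

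A_51_P297517 was 0.67 higher in metM-Wnt than in E-Wnt without folic acid (SE 0.26, adjusted p = 0.0453) and A_52_P390625 was 0.72 higher (SE 0.28, adjusted p = 0.0444), each with 3 of 3 arrays above every E-Wnt array. In fits that left out 1 array, the call held in 16 of 18 for the Gcsh probe, in 9 of 18 for A_51_P297517 and in 8 of 18 for A_52_P390625. Leaving out an array of another group changes only the SE and adjusted p, not the difference itself. Under the other 16 settings it held in 14, 9 and 7 in the same order, and with median centring the values were -0.01 for A_51_P297517 (adjusted p = 0.982) and 0.06 for A_52_P390625 (adjusted p = 0.908).

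The other comparisons without folic acid did not pass. M-Wnt was 0.31 above E-Wnt (SE 0.23, 95% confidence interval -0.18 to 0.81, adjusted p = 0.294), where 45% of features were called, and the direction turned with median centring (-0.40, or -0.05 relative to the median of all features) and with slide as a fixed block (-0.20). The metM-Wnt level was 0.39 above that of M-Wnt (SE 0.23, 95% confidence interval -0.10 to 0.89, adjusted p = 0.345), where 7.73% were called, and it passed with array weights (0.53, adjusted p = 0.026). Slide and line cannot be told apart in this comparison of metM-Wnt with M-Wnt either.

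**Figure D4:**
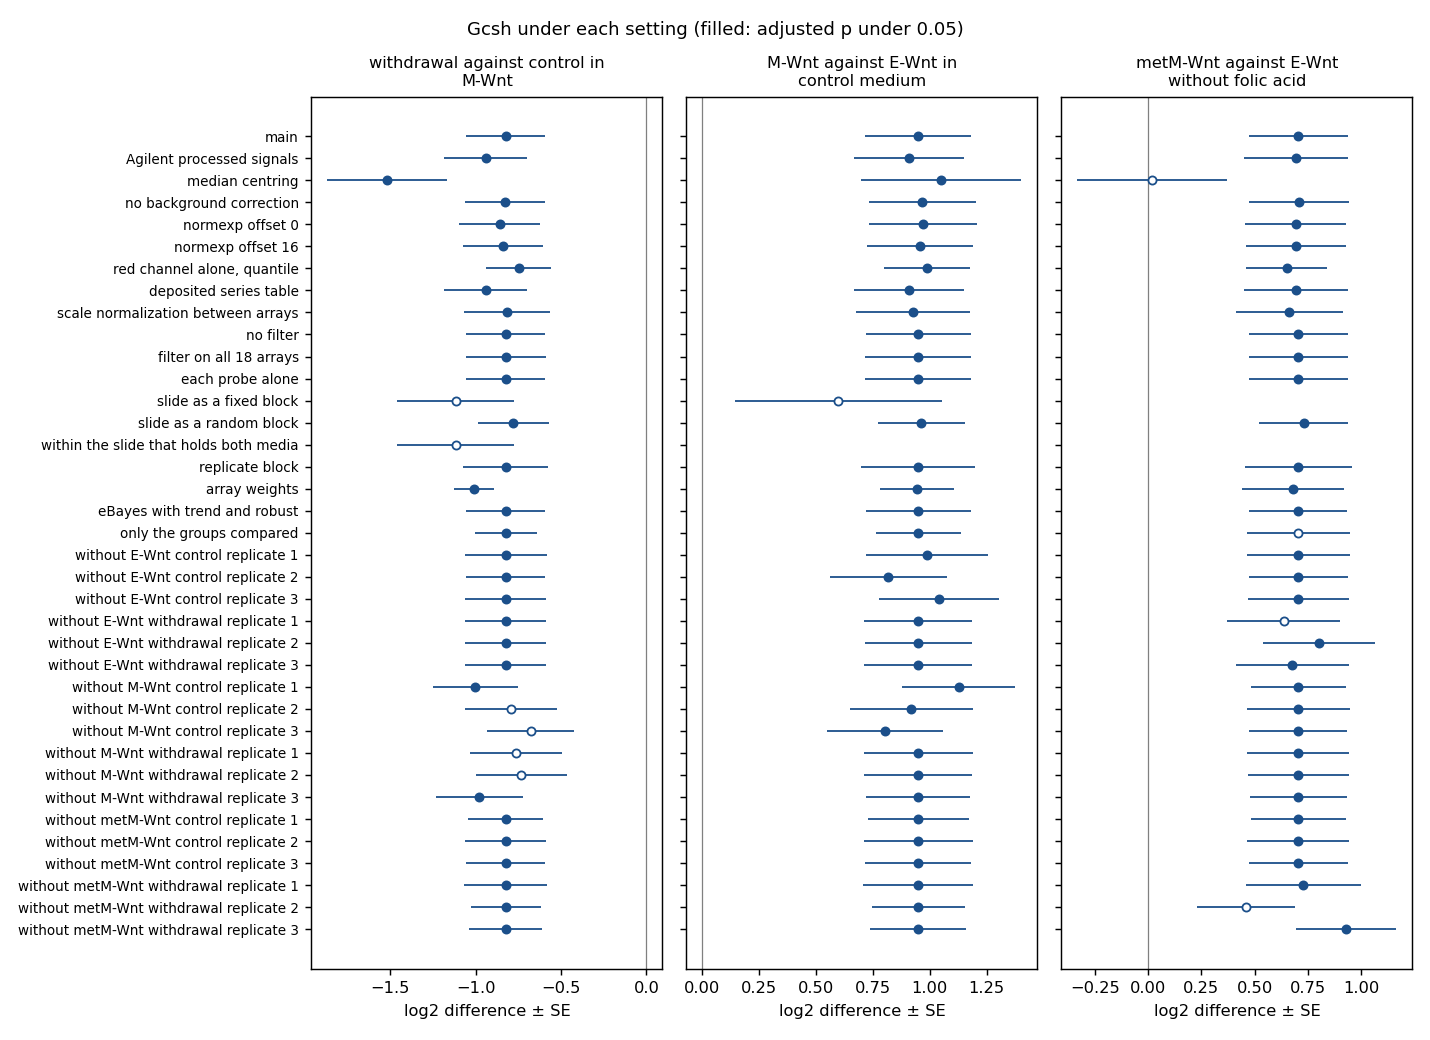
Gcsh log2 difference ± SE (horizontal axis) for the 3 comparisons that passed, under each processing setting and with each array left out (vertical axis), filled where the adjusted p was under 0.05. The M-Wnt withdrawal values stay below 0, from -1.52 to -0.68, the M-Wnt against E-Wnt values run from 0.60 to 1.13, and the metM-Wnt against E-Wnt values from 0.02 to 0.93; settings that could not be fitted have no point.

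The replicate arrays of a group were not alike in Gcsh, and the overlapping probes followed the same arrays. Over the 18 arrays the log2 ratio of A_51_P297517 correlated with that of the Gcsh probe at 0.99, the highest of 41078 other features, and that of A_52_P390625 at 0.972, rank 3. These correlations describe arrays that share hybridisation, and the probes share bases. On 16 of 18 arrays, all 3 probes deviated from their group mean in the same direction. The low value of M-Wnt control replicate 1 within its group was thus seen with all 3 probes.

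**Figure D5:**
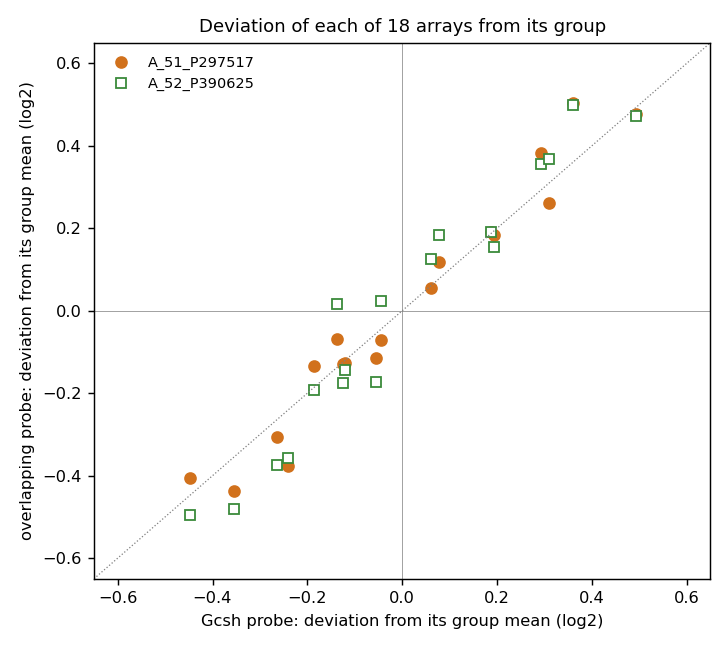
Deviation of each of the 18 arrays from its group mean (log2) for the Gcsh probe (horizontal axis) and for the overlapping probes A_51_P297517 (circles) and A_52_P390625 (open squares), with the line of equality dotted. Points lie along that line, and on 16 of 18 arrays the 3 probes have the same sign.

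Most genes of the pathway could not be read beside Gcsh. Of 56 genes listed for glycine cleavage, lipoylation of the H protein, serine and glycine supply, folate transport and one-carbon enzymes and other lipoyl-dependent complexes, only Gcsh had a probe with a gene name. That is 1 of 4 genes for the glycine cleavage system, with Gldc, Amt and Dld unnamed, 0 of 6 for lipoylation, 0 of 10 for serine and glycine supply, 0 of 27 for folate and one-carbon enzymes and 0 of 9 for the other lipoyl-dependent complexes. Whether unnamed probes on the array read these genes is not known here, so no statement on the pathway rests on these data.

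Among the 73 other named genes that passed the filter, Tsen15, a subunit of the tRNA splicing endonuclease, was the most like Gcsh, with a Pearson correlation of 0.915 over the 18 arrays and 0.951 over the 6 group means. Srsf10, a splicing factor, followed at 0.856 (0.923 over the group means), then Rnf125, a ubiquitin ligase, at 0.854, Macrod2, an ADP-ribose hydrolase, at 0.788, and the transcript 2810021J22Rik at 0.756. Both spots of the Rnf125 probe were well above background in red on only 12 of 18 arrays, so part of its pattern lies at the background level. The median correlation of all 41078 other features with Gcsh was 0.027. The arrays share the reference RNA, the slides and the line, and the correlations are a description.

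Across the scalings run, the correlations of these 5 genes stayed between 0.644 and 0.941. Their log2 changes on withdrawal in M-Wnt are given as a description, since the genes were chosen for their likeness over the same arrays. The change was -0.58 for Tsen15, -0.48 for Srsf10, -0.56 for Macrod2 and -1.17 for 2810021J22Rik, and Rnf125 was also lower. Those of Tsen15 (adjusted p = 0.1) and Rnf125 (adjusted p = 0.47) did not pass by limma, in a comparison that called 18.4% of all features. In control medium the difference of M-Wnt from E-Wnt was 0.46 for Tsen15, 1.06 for Srsf10, 0.53 for Macrod2 and 1.78 for 2810021J22Rik, and that of Tsen15 did not pass (adjusted p = 0.14). That comparison called 45.6% of all features. Rnf125 was also higher there and passed by limma (adjusted p = 0.0012). No size is given for Rnf125 here or for its change on withdrawal, since its probe was well above background on only 12 of 18 arrays.

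The lowest correlations were those of Atp5md, a small subunit of the mitochondrial ATP synthase, at -0.707, of Tbc1d16, a Rab GTPase-activating protein, at -0.705, and of Ndufs6, a subunit of respiratory complex I, at -0.686. With median centring, Atp5md turned to 0.29 and Ndufs6 to 0.44, while Tbc1d16 was at -0.144. The negative correlations of these mitochondrial genes therefore held only while the arrays were normalised in other ways.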

How the data were processed

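The deposited scanner files of the authors give the linear intensity of each spot and of its local background in both colours, from Agilent Feature Extraction 10.7.3.1 per the submitters' processing notes. The deposited value table of the series gives log10 ratios that equalled those of the scanner files within 0.005. Its direction is red, Cy5 (cells), over green, Cy3 (reference), per the labels, with no dye swap. The genome build is not given in the sources used here, so no coordinates are printed.

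Background was corrected with normexp (offset 50), ratios were normalised by loess within each array, control and outlier spots were left out, and each probe's 2 spots were averaged. Probes with both spots well above background in red on all 3 arrays of at least 1 group were kept, except 20 for which an array had no usable spot, which left 41089 probes. Probes of a named gene were averaged, giving 41079 features, 74 of them named genes. The gene names come from the probe IDs (220 probes for 157 symbols). Of these probes, 182 were named by a RefSeq transcript accession and 38 by a gene symbol or synonym. One limma model held 6 group means (lmFit and eBayes, 12 residual and 3.97 prior degrees of freedom), with 2-sided tests, Benjamini-Hochberg adjustment over all features in each comparison and calls at an adjusted p under 0.05. The number of arrays limits the precision. Named genes were Gcsh, every listed pathway gene with a named probe, and the 5 most and 3 least correlated named genes. The gene and the lists were chosen with earlier results of these data known. Alternatives covered background, scaling, filter, slide, replicate block, weights and each left-out array. These settings overlap. Fitting each probe alone repeats the main fit for Gcsh, and the deposited series table nearly repeats the Agilent processed signals. The tests were tried on simulated data. R was 4.3.3, limma 3.58.1, matplotlib 3.10.9 and the data.table package version 1.17.8.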

Additional observations from a re-analysis of the deposited data

How the results depend on the processing

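Slide as a fixed block gave -1.12 for withdrawal in M-Wnt (adjusted p = 0.082) and 0.60 for control M-Wnt against control E-Wnt (0.38). It gave -0.20 for these lines without folic acid (reversed) and -0.02 for withdrawal in metM-Wnt (reversed). For withdrawal, the comparison within the slide holding both media is the same estimate, not a further check. Median centring reversed withdrawal in metM-Wnt (-0.29), M-Wnt against E-Wnt without folic acid (-0.40) and the response of metM-Wnt minus E-Wnt (-0.23). Relative to the median of all features under that scaling, these values were -0.12, -0.05 and 0.01 in the same order. Median centring also reversed the correlations with Ndufs6 (0.44) and Atp5md (0.29), and gave 0.02 for metM-Wnt against E-Wnt without folic acid. With only the groups compared in the fit the last was 0.70 (adjusted p = 0.059). Withdrawal in metM-Wnt was also reversed, at -0.01, with Agilent processed signals and with the deposited series table, and at -0.10 with the overlapping probe A_52_P390625, an alternative chosen after seeing the data. Array weights brought calls for withdrawal averaged over the lines (-0.36), metM-Wnt against M-Wnt with (-0.62) and without folic acid (0.53), and the responses of M-Wnt minus E-Wnt (-0.80) and metM-Wnt minus M-Wnt (1.15). For metM-Wnt against E-Wnt in control medium, the red channel alone (0.54) and slide as a random block (0.51) brought a call. The cause of these changes was not tested.

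With arrays left out in turn, values ran from -0.32 to -0.09 for withdrawal in E-Wnt, -1.0 to -0.68 in M-Wnt, -0.23 to 0.24 in metM-Wnt and -0.41 to -0.26 averaged. They ran from 0.80 to 1.13 for M-Wnt against E-Wnt, -0.63 to -0.30 for metM-Wnt against M-Wnt and 0.32 to 0.62 for metM-Wnt against E-Wnt in control medium, and without folic acid from 0.16 to 0.41, 0.15 to 0.62 and 0.46 to 0.93 in the same order. The response differences ran from -0.82 to -0.49 (M-Wnt minus E-Wnt), 0.60 to 1.07 (metM-Wnt minus M-Wnt) and -0.04 to 0.43 (metM-Wnt minus E-Wnt, reversed without metM-Wnt withdrawal replicate 2).

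A pairing of the samples by replicate number was not seen. Same-numbered arrays' deviations correlated between -0.651 and 0.547, with 3 of 9 pairs over 0.1, and 2 of 9 control arrays correlated best with their own number. Some pairs shared a slide and others did not, so this check does not settle whether the samples were paired. A replicate block left Gcsh on the same side of the threshold in all 13 comparisons (adjusted p = 0.0406 for withdrawal in M-Wnt, 0.00631 for control M-Wnt against control E-Wnt and 0.0358 for metM-Wnt against E-Wnt without folic acid), while A_51_P297517 (0.0579) and A_52_P390625 (0.0728) lost the call for withdrawal in M-Wnt. Features called in that comparison numbered 7563 without the block and 6012 with it. Slide as a fixed block could not be fitted for metM-Wnt against the other lines.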
